A study of Homo sapiens with 37 samples.

Results

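DACT3 and 9 further genes of the canonical Wnt pathway were followed through bulk RNA-seq libraries of K562 cells with and without ZBTB7A. The genes are the Dapper family members DACT1 and DACT3, the Dishevelled genes DVL1, DVL2 and DVL3, the scaffolds AXIN1 and AXIN2, the beta-catenin gene CTNNB1, and the transcription factor genes LEF1 and TCF7L2. They were picked by symbol for their place in the pathway. These members, and the wider Wnt lists below, were chosen with earlier results of these data known. The list was drawn up because DACT3 was strongly higher in the KO libraries. The KO and control values of DACT3 are therefore given as a description, without a test. Of the 10 genes, 9 were matched by Ensembl identifier among the 32055 genes of the table and DVL3 was not analysed here. Of the 9, 7 passed edgeR's filter on low counts, which left 10661 genes, while DACT1 and AXIN2 did not. DACT3 passed through the KO libraries, where it is high.

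The 37 libraries, 26 labelled KO and 11 labelled Control, come from K562, an established human erythroleukemia cell line. In both groups cells were electroporated with a plasmid that carries Cas9 and GFP, and GFP-positive single cells were sorted and expanded. The KO cells received 1 of 2 gRNAs against ZBTB7A, a zinc finger transcription factor, and the control cells the plasmid without a gRNA. The labels name each library by its barcode only, without clone, gRNA or day. The p-values therefore measure the spread between libraries, which may partly be technical or that of single clones. Replicate numbers below follow the order of the sample records and only name a library.

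Total UMIs per library ranged from 1070250 to 4270901 in KO (median 2030965) and from 563235 to 4710809 in control (median 3518944), so the KO libraries were on the whole shallower. Of the 6 barcode bases, G or C made up at least 4 in GC-rich and at most 2 in AT-rich barcodes. GC-rich barcodes were carried by 12 KO libraries and 1 control library, AT-rich barcodes by 12 KO and 8 control libraries. The erythroid markers GATA1, TAL1, KLF1, HBG1, HBG2, HBZ and TFRC were all above 5.7 log2 CPM in every library, whereas CD14 and CD3E reached at most 2 UMIs. The ZBTB7A transcript differed by 0.12 on the log2 scale (edgeR adjusted p = 0.331), which does not check the labels because the reads come from the 3′ end, where an edit of the coding sequence need not show. KO replicate 18, with barcode GGCCAC, lay among the control libraries for DACT3, and values without it are given beside the member results below.

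In the canonical Wnt pathway, a Wnt ligand binds a Frizzled receptor and an LRP5 or LRP6 co-receptor, and Dishevelled proteins then carry the signal inward. Without ligand, a complex built on Axin and APC marks beta-catenin for destruction. With ligand, beta-catenin builds up, enters the nucleus and joins TCF/LEF proteins on target genes, among them AXIN2, which feeds back on the pathway. Dapper proteins bind Dishevelled and have been described as antagonists of the pathway, and silencing of DACT3 has been linked to Wnt signaling in colorectal cancer. In blood, LEF1 and TCF7 are best known from lymphocyte development.

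DACT3 (ENSG00000197380) occupies positions 46647551 to 46661182 of chromosome 19 on the minus strand (GRCh38, as for all positions below). RefSeq lists more than 1 start for it. The 250 bases before the start that GENCODE gives as well, at chr19:46661183-46661432, are shown because this is the region just upstream of the gene whose transcript differs most among the members. They were taken from the RefSeq promoter table (GRCh38.p14) and are written 5′ to 3′ on the minus strand. In GENCODE release 44 the antisense gene DACT3-AS1 spans this stretch, and where its exons lie is not given here. Capitals mark the letters AGATAA, the core bound by GATA factors, and CCAAT, the CCAAT box. Both were chosen after the sequence had been read.

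DACT3: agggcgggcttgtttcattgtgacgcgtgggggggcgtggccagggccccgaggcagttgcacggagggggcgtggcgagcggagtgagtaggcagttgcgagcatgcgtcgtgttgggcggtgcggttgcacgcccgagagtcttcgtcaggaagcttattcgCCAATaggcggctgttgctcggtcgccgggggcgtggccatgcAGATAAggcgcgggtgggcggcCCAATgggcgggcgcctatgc

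AGATAA sits 43 to 38 bases before the start, and CCAAT 86 to 82 and 21 to 17 bases before it. On either strand, AGATAA occurs in 9.17% and CCAAT in 32.0% of the 35116 stretches of 250 bases before RefSeq starts. The stretch is 68.4% G or C with 28 CpG dinucleotides, against medians of 58.0% and 11 over all stretches. It holds no match to the TCF/LEF letters CTTTGAT (2.26% of all stretches) or CTTTGAA (3.80%), nor to GACCACC, the core of the ZBTB7A motif (2.42%). Among the 14 RefSeq starts found for the member genes, CTTTGAA was matched before 1 start of DACT1 and CTTTGAT before none. AXIN2 had no entry.

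DACT3 was a low transcript in control cells and clearly higher in KO cells. Control libraries held 1 to 8 UMIs (median 5) and KO libraries 3 to 46 (median 22). Scaled to library size and TMM factors, this gave 0.254 to 3.58 CPM (UMIs of a gene per 1e6 UMIs of the library, median 1.39) in control and 1.55 to 16.1 CPM (median 10.8) in KO. On the log2 CPM scale (prior count 2) control libraries averaged 1.07 ± 0.57 (SD, n = 11) and KO libraries 3.41 ± 0.59 (SD, n = 26). The fitted log2 fold change was 2.94 (standard error 0.24, edgeR), about 7.67-fold. It ranked 23 from the top among the 10661 genes tested. Since this rise chose the list, the rank only describes it and is no support for it. In 25 of 26 KO libraries DACT3 lay above the highest control, so the groups were apart except for 1 library. That library, KO replicate 18, held 3 UMIs and was at 1.22 log2 CPM. The other KO libraries ran from 2.61 to 4.07 and averaged 3.50 ± 0.39 (SD, n = 25), and the log2 fold change without it was 2.98.

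The highest control, at 2.12 log2 CPM, was the shallowest library, Control replicate 7, where the value rests on 2 UMIs. Counts this small carry a large counting error. Summed over libraries, DACT3 had 45 UMIs in control, or 1.28 CPM (exact Poisson 95% interval 0.934 to 1.71), and 616 in KO, or 10.2 CPM (9.39 to 11), here and in other sums without TMM factors. These intervals cover counting error only. Within AT-rich barcodes control libraries averaged 1.09 ± 0.62 (SD, n = 8) and KO libraries 3.35 ± 0.44 (SD, n = 12), and KO libraries with GC-rich barcodes averaged 3.39 ± 0.73 (SD, n = 12). Over the KO libraries the Spearman correlation of DACT3 with total UMIs was -0.26 (n = 26). With log2 total UMIs as a covariate the fitted log2 fold change was 2.77. Because these are bulk samples, fewer cells with the transcript and less of it per cell cannot be told apart.

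**Figure D1:**
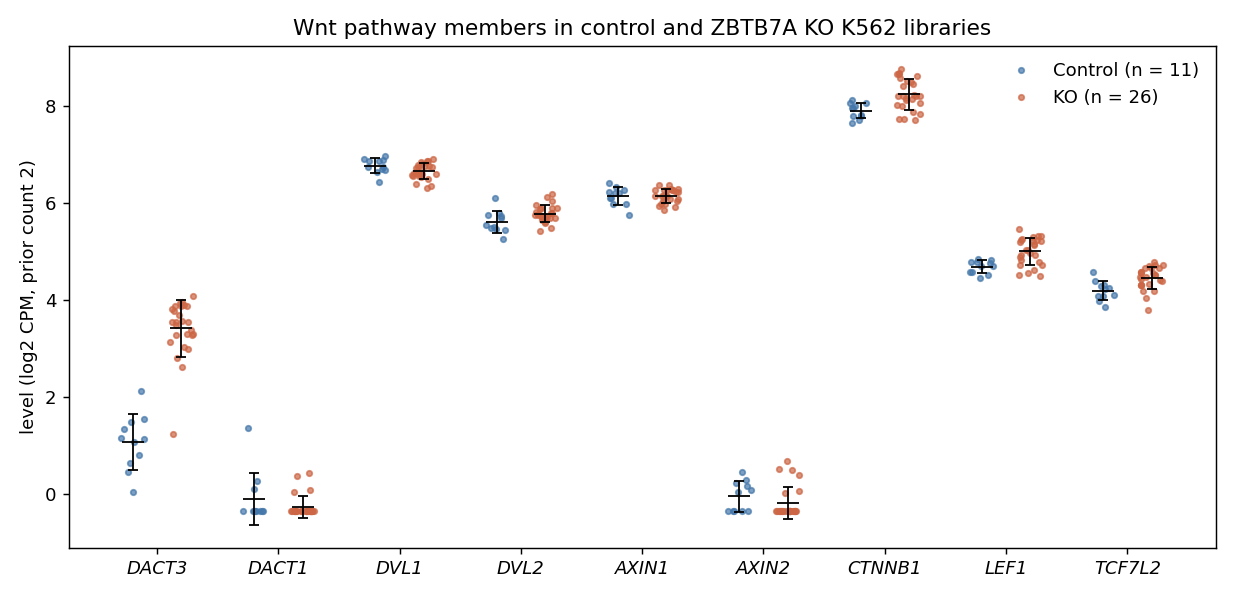
Level of each member (log2 CPM, prior count 2) in the 11 control and 26 KO libraries, 1 point per library, with the mean and SD as black bars. DACT3 averaged 1.07 in control and 3.41 in KO with 1 low KO library at 1.22, while the other members overlapped between the groups.

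The genes around DACT3 were measured at very different depths. DACT3-AS1, a long noncoding RNA on the plus strand from 46660364 to 46678991, overlaps the first part of DACT3 and had 14 UMIs in KO (0.126 to 0.388 CPM, exact Poisson 95% interval) and 2 in control (0.00689 to 0.206). Beyond the 3′ end of DACT3, GNG8, a G protein gamma subunit gene, had 11 UMIs in KO (0.0907 to 0.325 CPM) and 1 in control (0.000720 to 0.159). PTGIR, the prostacyclin receptor gene, had 24 and 6 UMIs (0.254 to 0.590 and 0.0626 to 0.372 CPM). These 3 genes were under the count filter and were not tested. Each had the higher summed rate in KO. The rates in KO and control were 0.231 and 0.0569 CPM for DACT3-AS1, 0.182 and 0.0284 for GNG8, and 0.396 and 0.171 for PTGIR. Their intervals overlapped between the groups, which does not show that a difference is absent. Upstream of DACT3, the kinase gene PRKD2 differed by 0.11 on the log2 scale (edgeR adjusted p = 0.24) and STRN4 by 0.06 (adjusted p = 0.615). The 2 remaining neighbors held 1 UMI each over all libraries. Whether strand was used in counting is not given in the sources used here. The 3′ end of DACT3, which the assay reads, lies outside DACT3-AS1.

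**Figure D2:**
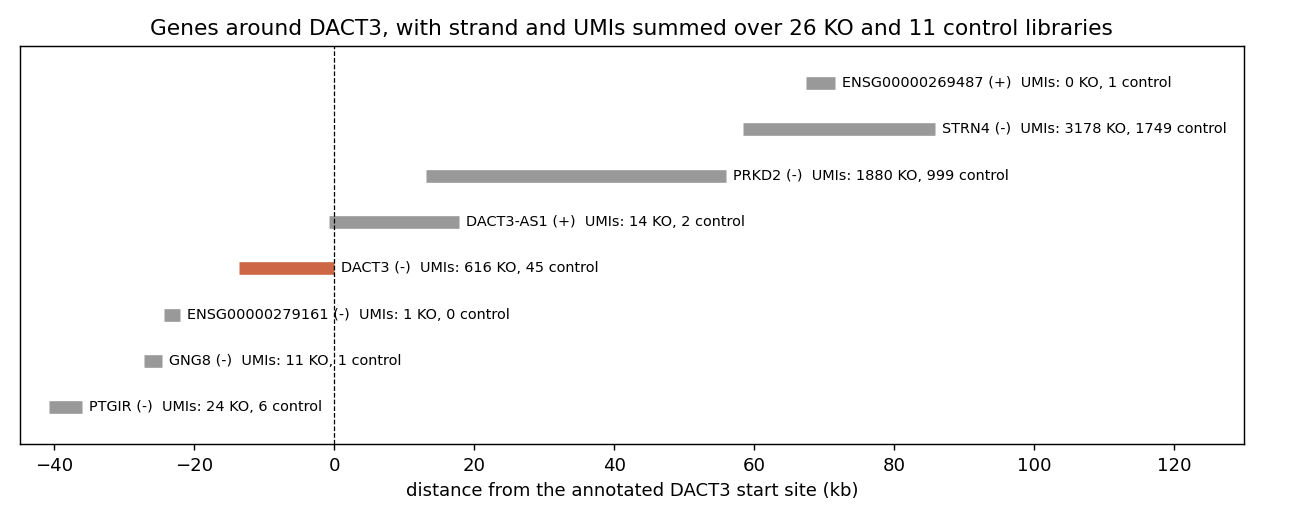
Gene bodies around DACT3 by distance from its annotated start (kb, genome order), with strand and UMIs summed over the 26 KO and 11 control libraries. DACT3 held 616 KO and 45 control UMIs, DACT3-AS1 14 and 2, and PRKD2 1880 and 999.

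DACT1 (ENSG00000165617), the other Dapper gene measured, was near zero throughout. It had 4 UMIs over all KO libraries, with 22 of 26 at 0, and 3 UMIs over all control libraries, with 8 of 11 at 0. This is 0.0661 CPM (exact Poisson 95% interval 0.0180 to 0.169) in KO and 0.0853 (0.0176 to 0.249) in control. No difference was detectable at this depth (difference of mean log2 CPM, KO minus control, -0.17, two-sided permutation test with 100000 resamples, p = 0.192, adjusted p = 0.23 over 2 genes). Of the Dapper genes measured, DACT3 was thus the one with a usable level, and this held for the KO libraries. In control libraries it rested on 1 to 8 UMIs.

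Of the members besides DACT3, 6 were tested between KO and control, and 4 of them were higher in KO (adjusted p below 0.05, edgeR with Benjamini-Hochberg adjustment over all tested genes) and 0 lower. Of the 6, 0 were lower at an unadjusted p of 0.05 either, and limma-voom and DESeq2 also gave 4 higher and 0 lower. Among all tested genes the share was 33.8% in either direction, 17.7% higher and 16.2% lower. Because the members were chosen with earlier results of these data known, setting their count beside this share is only a description. The 4 were CTNNB1, LEF1, TCF7L2 and DVL2, and all 4 had a log2 fold change below 0.5. Of all tested genes, 10.2% passed both an adjusted p of 0.05 and an absolute log2 fold change of 0.5, and of these 6 members 0 did.

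The Dishevelled genes, which relay the signal from the receptor, showed small differences. DVL1 (ENSG00000107404, chromosome 1, 1335276 to 1349418) ranged from 6.43 to 6.97 log2 CPM in control (median 6.74) and from 6.30 to 6.91 in KO (median 6.63), so the groups overlapped almost fully. Its log2 fold change was -0.11 (95% interval -0.22 to 0.01, adjusted p = 0.15, edgeR). DVL2 (ENSG00000004975, chromosome 17, 7225342 to 7234517) ranged from 5.25 to 6.10 in control (median 5.54) and from 5.42 to 6.19 in KO (median 5.76). Only 2 of 26 KO libraries exceeded the highest control, although 24 exceeded the control median. The fit gave a log2 fold change, with its standard error, of 0.19 ± 0.07 (edgeR adjusted p = 0.0257).

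The DVL2 call was the least stable of the 4. It was lost without Control replicate 3 (0.16, adjusted p = 0.0676, edgeR) or Control replicate 11 (0.18, adjusted p = 0.0521), within AT-rich barcodes (0.14, adjusted p = 0.293), and with barcode class (0.15, adjusted p = 0.112) or log2 total UMIs (0.11, adjusted p = 0.169) as a covariate. Its level went down with depth, with a Spearman correlation with total UMIs of -0.50 over the 26 KO and -0.85 over the 11 control libraries. With all libraries thinned to the smallest total, DVL2 passed in 0 of 5 random draws, with log2 fold changes from 0.12 to 0.29 (median 0.19).

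Of the Axin scaffolds of the destruction complex, AXIN1 was steady and AXIN2 barely present. AXIN1 (ENSG00000103126, chromosome 16, 287440 to 352723) ranged from 5.75 to 6.41 log2 CPM in control (median 6.20) and from 5.86 to 6.37 in KO (median 6.14). Every KO library lay within the control range. The log2 fold change was 0.01 (95% interval -0.10 to 0.12, adjusted p = 0.92, edgeR), and its sign changed under several alternatives. AXIN2 (ENSG00000168646, chromosome 17, 65528563 to 65561648), the scaffold that is also a target of the pathway, had 10 UMIs over all KO and 7 over all control libraries. It was at 0 in 20 of 26 KO and 5 of 11 control libraries and reached at most 3 UMIs. The rates of 0.165 CPM in KO (exact Poisson 95% interval 0.0792 to 0.304) and 0.199 in control (0.0801 to 0.410) were not distinguishable (difference of mean log2 CPM -0.14, two-sided permutation test, p = 0.23, adjusted p = 0.23 over 2 genes).

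CTNNB1 (ENSG00000168036, chromosome 3, 41194741 to 41260096), which encodes beta-catenin, was the most abundant member. Control libraries ranged from 7.65 to 8.12 log2 CPM (median 7.95) and KO libraries from 7.71 to 8.77 (median 8.20). The highest control was exceeded by 17 of 26 KO libraries, and 0 fell under the lowest. The mean rose from 7.90 ± 0.16 (SD, n = 11) to 8.24 ± 0.32 (SD, n = 26), so the KO libraries were also more spread. This was a fitted log2 fold change of 0.37 ± 0.10 (standard error), or 1.29-fold, with an edgeR adjusted p = 0.00418. CTNNB1 was higher in shallower libraries, with a Spearman correlation with total UMIs of -0.62 over the KO and -0.47 over the control libraries. With log2 total UMIs as a covariate the log2 fold change was 0.26 (adjusted p = 0.0295, edgeR), and within AT-rich barcodes 0.49 (adjusted p = 0.00298, edgeR).

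The TCF/LEF factors, the DNA-binding partners of beta-catenin, were at lower levels. LEF1 (ENSG00000138795, chromosome 4, 108047545 to 108168956) ranged from 4.45 to 4.85 log2 CPM in control (median 4.70) and from 4.49 to 5.46 in KO (median 5.02). The highest control was exceeded by 18 of 26 KO libraries, while the others fell within the control range. The fitted log2 fold change was 0.36 ± 0.09 (standard error, edgeR adjusted p = 0.00135), against 0.30 within AT-rich barcodes (adjusted p = 0.0476) and 0.42 with log2 total UMIs as a covariate (adjusted p = 0.000399). TCF7L2 (ENSG00000148737, chromosome 10, 112950247 to 113167678) ranged from 3.86 to 4.58 in control (median 4.22) and from 3.78 to 4.78 in KO (median 4.48). Only 8 KO libraries exceeded the highest control, but 22 exceeded the control median. The fitted log2 fold change was 0.27 ± 0.09 (standard error, edgeR adjusted p = 0.0121), or 0.35 within AT-rich barcodes (adjusted p = 0.0141). With all libraries thinned to the smallest total, TCF7L2 passed in 0 of 5 random draws (log2 fold change 0.123 to 0.425) and LEF1 in 1.

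KO replicate 18 was the lowest KO library not only for DACT3 but also for LEF1, at 4.49 log2 CPM, and for TCF7L2, at 3.78, which is below the lowest control. For DVL1 it was the highest KO library, at 6.91, and for CTNNB1, at 8.15, it was in the middle of the KO range. Without it the log2 fold changes were 0.37 for CTNNB1 (adjusted p = 0.00429, edgeR), 0.38 for LEF1 (0.000486), 0.29 for TCF7L2 (0.0035) and 0.20 for DVL2 (0.0203), while DVL1 (-0.12, 0.1) and AXIN1 (0.006, 0.96) did not pass.

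**Figure D3:**
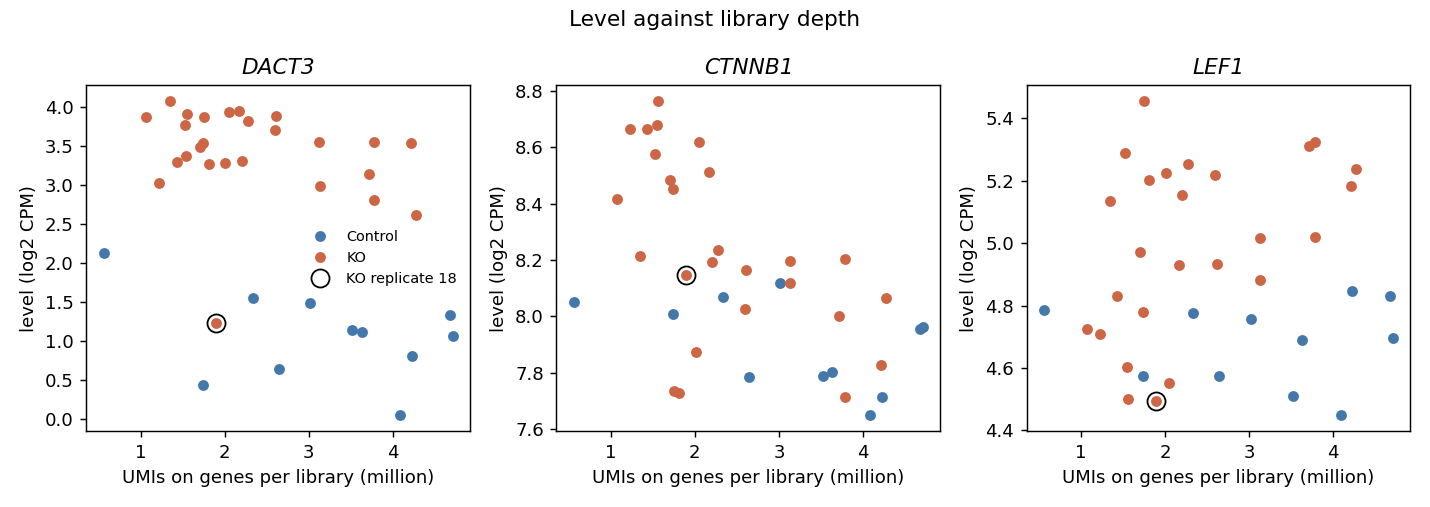
Level (log2 CPM) of DACT3, CTNNB1 and LEF1 against UMIs on genes per library (axis in 1e6 UMIs), 1 point per library, with KO replicate 18 ringed. The KO points for DACT3 lie above the controls except for the ringed library at 1.22, while CTNNB1 is higher in shallow KO libraries (Spearman correlation -0.62, n = 26).

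The members did not move as a block within the KO libraries. Over the 26 KO libraries, DACT3 had Spearman correlations of 0.22 with CTNNB1, -0.03 with LEF1, -0.15 with TCF7L2 and -0.45 with DVL1. The correlation farthest from zero was between CTNNB1 and LEF1, at -0.67, and the KO libraries with the most CTNNB1 thus tended to have the least LEF1. Without KO replicate 18 it was -0.75 (n = 25), and those of DACT3 were 0.20 with CTNNB1, -0.16 with LEF1, -0.29 with TCF7L2 and -0.38 with DVL1. The correlation of CTNNB1 with LEF1 was -0.82 over the 12 AT-rich and -0.43 over the 12 GC-rich KO libraries. LEF1 correlated with total UMIs at 0.44 and CTNNB1 at -0.62 over the same 26 libraries, and the part of depth in their opposite course was not tested. Over the 11 control libraries the correlation of CTNNB1 with LEF1 was 0.37, and DACT3 had 0.70 with CTNNB1, 0.56 with LEF1 and 0.61 with TCF7L2, where DACT3 rests on at most 8 UMIs. Libraries share depth, barcode composition and possibly clones, so these values describe the libraries and are given without p-values.

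**Figure D4:**
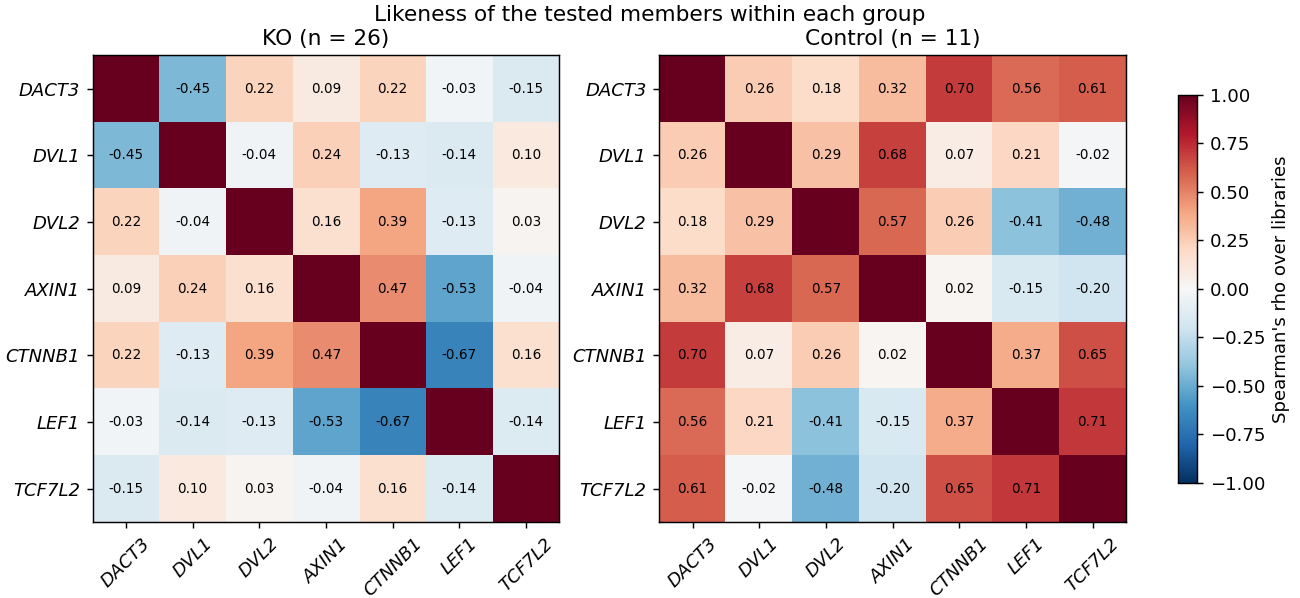
Spearman's rho between the 7 tested members over the 26 KO libraries (left) and the 11 control libraries (right), colored from -1 to 1. CTNNB1 and LEF1 are at -0.67 in KO and 0.37 in control, and DACT3 and CTNNB1 at 0.22 and 0.70.

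Among all tested genes, the 5 whose level followed DACT3 most closely over the KO libraries were NQO2 (Spearman correlation 0.75, n = 26), AFDN (0.72), TMEM51 (0.70), CD9 (0.69) and RNF217 (0.69). Over the 11 control libraries their correlations with DACT3 were 0.06, -0.31, 0.17, 0.79 and 0.18. Of the 5, CD9 was thus the one with a high value in both groups. The 5 were picked as the highest among all tested genes, and DACT3 rests on at most 8 UMIs per control library. How many other genes reach such a value in control is not given, so this is a description only.

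The rest of the pathway was described through 136 further Wnt genes listed by role, of which 122 had a row in the table and 71 passed the count filter. Of the 71, 16 were higher and 8 lower in KO (adjusted p below 0.05, edgeR), which is 33.8%, the same share as among all tested genes. By role, the share called was 38.5% for receptors, 27.8% for cytoplasmic regulators, and 37.5% each for nuclear cofactors and targets. It was 30% for planar polarity and 25% for cadherins and catenins. The ligands (100%) and surface inhibitors (0%) rest on 2 and 3 tested genes. The median log2 fold change was 0.05, against -0.0046 over all tested genes. Without KO replicate 18, 16 were higher and 11 lower, while of all genes 1922 were higher and 1804 lower. By the counts of the main fit the pathway as a whole did not stand apart, and the changes lay in single genes.

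Of 25 genes for ligands and their secretion, 2 were tested and both were lower in KO. WNT10B ranged from 3.40 to 4.08 log2 CPM in control and from 1.27 to 4.06 in KO, with 15 of 26 KO libraries below the lowest control. Its log2 fold change was -0.59 (adjusted p = 0.0205, edgeR). WNT5B, best known as a noncanonical ligand, fell by 0.92 on the log2 scale (edgeR adjusted p = 0.0142), with 10 KO libraries below the lowest control. Of 19 receptor genes, 13 were tested, 3 were higher and 2 lower. LGR4, a receptor for R-spondins, averaged 4.17 ± 0.27 in control (SD, n = 11) against 5.13 ± 0.53 in KO (SD, n = 26), a rise of 1.05 in the fit (edgeR adjusted p = 1.44e-05). PTK7, a pseudokinase co-receptor of the planar polarity branch, rose by 0.90 (adjusted p = 7.38e-07, edgeR), and 23 of 26 KO libraries exceeded every control. FZD1, a Frizzled receptor gene, fell by 0.67 on the log2 scale (adjusted p = 0.0157, edgeR), and within AT-rich barcodes it did not pass (-0.51, adjusted p = 0.236). FZD7, also a Frizzled receptor gene, went the other way (0.66, adjusted p = 0.0181, edgeR). The remaining called receptor gene, ROR2, was lower (-0.47, adjusted p = 0.000126, edgeR). With log2 total UMIs as a covariate neither ligand nor FZD1 passed (edgeR adjusted p = 0.0601 for WNT5B, 0.0773 for WNT10B and 0.0768 for FZD1). WNT10B did not pass with no filter on low counts either (-0.60, edgeR adjusted p = 0.0575).

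Of 18 secreted and surface inhibitors, 3 were tested and 0 were called at an adjusted p of 0.05 in edgeR, limma-voom or DESeq2. At an unadjusted p of 0.05, edgeR had 1, NOTUM, a secreted Wnt deacylase (-0.32, adjusted p = 0.0753). Of 23 cytoplasmic regulators, 18 were tested, 3 were higher and 2 lower, the called genes with log2 fold changes between -0.34 and 0.25. APC, the partner of Axin in the destruction complex, was higher (0.25, adjusted p = 0.00853, edgeR), and so was SENP2, a SUMO protease (0.23, adjusted p = 0.00306). BTRC, an F-box protein that marks phosphorylated beta-catenin for degradation, was lower (-0.34, adjusted p = 0.000706). FBXW11, also an F-box protein, went the other way (0.21, adjusted p = 0.0233, edgeR). The remaining called gene, CSNK1E, was lower (-0.22, adjusted p = 0.00499, edgeR). In the 5 thinning draws BTRC passed in 0 (log2 fold change -0.39 to -0.11), and APC and SENP2 in 1 each. GSK3A, GSK3B and the other 11 tested genes of this group did not pass.

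Of 19 nuclear cofactors, 16 were tested, 5 were higher and 1 lower. TLE4, a Groucho-type corepressor, rose by 1.47 ± 0.37 in the fit (log2 scale, standard error, edgeR adjusted p = 0.00241). Its levels were widely spread in both groups, from 0.71 to 3.68 log2 CPM in control and from 0.50 to 4.87 in KO, and 21 of 26 KO libraries exceeded every control. TCF7, the third TCF/LEF gene with a usable level, rose by 0.60 (adjusted p = 0.00267, edgeR), with 6 KO libraries higher than any control. PYGO1, which binds BCL9 proteins next to beta-catenin, fell by 0.69 on the log2 scale (adjusted p = 0.00407, edgeR).

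Among 18 genes known as targets in other tissues, 8 were tested, 2 were higher and 1 lower. The higher genes were TCF7, also listed among the cofactors, and JUN, an AP-1 subunit gene (0.35, adjusted p = 0.00499, edgeR). MYC was lower, with control libraries at 9.36 ± 0.21 log2 CPM (SD, n = 11) and KO libraries at 8.81 ± 0.41 (SD, n = 26). It fell by 0.50 in the fit (edgeR adjusted p = 0.00188), and 18 KO libraries were under every control. The feedback targets NKD1, LGR5, SP5 and APCDD1 had at most 14 UMIs each over all libraries and were not tested. ZNRF3 (0.095, adjusted p = 0.534, edgeR) and NOTUM (-0.32, adjusted p = 0.0753), listed as targets as well as surface inhibitors, were tested and not called.

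Dapper and Dishevelled proteins also act in planar cell polarity. Of 16 genes of that branch, 10 were tested, 3 were higher and 0 lower, also by limma-voom and DESeq2, with 1 lower at an unadjusted p of 0.05 in edgeR. The share called was 30%, near the 33.8% among all tested genes, so the branch did not stand apart by this count. VANGL2, a core membrane protein of the branch, averaged 3.60 ± 0.50 log2 CPM in control (SD, n = 11) against 4.55 ± 0.29 in KO (SD, n = 26). It rose by 0.88 in the fit (edgeR adjusted p = 9.92e-07), and 25 of 26 KO libraries exceeded every control. DAAM1, a formin that binds Dishevelled, rose by 0.48 (edgeR adjusted p = 0.00536), and ROCK2, a kinase of the cytoskeleton, by 0.23 (adjusted p = 0.00278). Of 6 genes for cadherins and catenins, 4 were tested, and CTNND1, which encodes p120-catenin, was higher (0.32, adjusted p = 0.00261, edgeR) and 0 were lower, with 1 lower at an unadjusted p of 0.05 and 1 called lower by limma-voom.

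**Figure D5:**
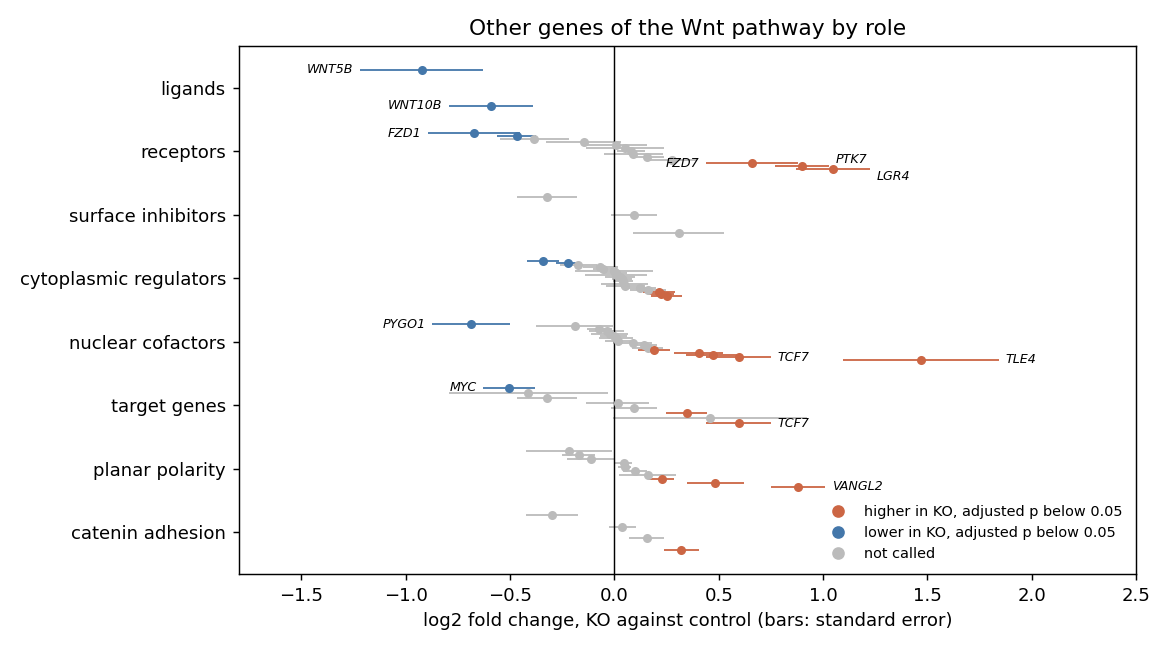
Log2 fold change of KO against control with its standard error for the tested genes of each Wnt role, colored by call at an adjusted p of 0.05 and named where called beyond 0.5 in either direction. Of 71 genes 16 were higher and 8 lower, from -0.92 for WNT5B to 1.47 for TLE4; TCF7 and 2 not called genes appear in more than 1 role.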

How the data were processed

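The authors sequenced lysed K562 cells with a bulk form of SCRB-seq, a 3′ RNA-seq method with oligo(dT) priming and UMIs. They mapped reads to hg38 with STAR (2.6.0a per the submitters' processing notes), processed them with zUMIs against Ensembl GRCh38.84, and deposited raw UMI counts per gene. A count is a captured molecule and does not depend on transcript length. Columns were matched to samples by barcode. Symbols came from GENCODE release 44, which paired 31323 of 32055 identifiers.

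The test was run with edgeR 4.0.16 under R 4.3.3 (default filter, TMM, robust quasi-likelihood fit on group, Benjamini-Hochberg over 10661 genes, called at adjusted p below 0.05). Standard errors were obtained from the fold change and the F statistic, and 95% intervals are 1.96 standard errors. On simulated counts for this comparison (10565 genes, 200 changed), 94.5% were recovered with 15 false calls. This setting changed a far smaller share of genes than the 33.8% called in the data. The recovery of changes as small as those of the members cannot be read from it. Members and lists were chosen with earlier results of these data known. Named genes were the members, the called genes with the 3 largest changes of each role, the 3 nearest neighbors of DACT3 on each side with any overlapping gene, and the 5 genes most correlated with it. FBXW11, CSNK1E, FZD7, ROR2 and ZNRF3 were named as well, with the main fit only. Alternatives used limma 3.58.1 (the package the paper names), DESeq2 1.42.0, other scalings, filters, sample subsets and covariates. The covariate of log2 total UMIs, 4 of 5 thinning draws and the values without KO replicate 18 as a set were added after the data were seen. The other experiments of the study were not analysed here. Some marker genes are not reported here.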

Additional observations from a re-analysis of the deposited data

How the results depend on the processing

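CTNNB1, LGR4, PTK7, VANGL2, DAAM1, PYGO1 and MYC kept their call and direction in all alternatives that tested them, with CTNNB1 between 0.26 and 0.49. The count of members higher in KO besides DACT3 was 4, with 0 lower. It was 2 with no filter on low counts, where DVL2 and TCF7L2 no longer passed, and 1 when libraries were thinned to the smallest total, where only CTNNB1 did. Over 5 thinning draws LEF1 was called in 1 (log2 fold change 0.10 to 0.55) and CTNNB1 in 5, while DACT3 was under the filter in each, so depth limits the low members. Of the named wider genes, TLE4 passed in 4 draws, JUN and ROCK2 in 3, and TCF7 and CTNND1 in 2. No member besides DACT3 passed a log2 fold change of 0.5 as well (count 0). Leaving out single libraries gave 3 to 4 members higher and 0 lower, and the log2 fold change of DACT3 ranged from 2.81 to 3.02. Thinning gave 8 higher and 2 lower wider Wnt genes and 827 higher and 734 lower of all genes. With a log2 fold change above 0.5 as well, 6 and 5 wider Wnt genes and 709 and 376 of all genes remained. The count of lower wider Wnt genes, 8, was 5 with a mean of at least 10 CPM (a filter that DACT3 failed) and 5 with log2 total UMIs as a covariate. Of all genes, 1511 were lower with that filter and 1384 with that covariate, against 1724 in the main fit. The numbers of wider Wnt genes tested in these fits are not given. With library size alone 2240 genes were higher and 1322 lower (62.9% higher, against 52.2% with TMM). The log2 fold change of AXIN1 turned to -0.002 with no filter, -0.012 within AT-rich barcodes, -0.014, -0.017 and -0.031 in 3 thinning draws, -0.039 with log2 total UMIs as a covariate and ranged from -0.025 (without Control replicate 3) to 0.035 when single libraries were left out. The cause of these changes was not tested. No paired analysis was possible because the labels carry no replicate numbers.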
